A study of Mus musculus with 6 samples.

Results

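The mitochondrial genome of the mouse encodes 37 genes, and all of them had a row in the count table of 46983 genes. They were taken as every row whose Ensembl identifier maps to a symbol beginning with mt- in the GENCODE M21 annotation of GRCm38, and all 37 lie on chromosome M. They comprise 13 messenger RNAs, 2 ribosomal RNAs and 22 transfer RNAs. No expression value was used to choose them. The RNA came from GFP-positive cells sorted from E11.25 mouse embryos in which Wnt1-Cre, active in neural crest cells (NCCs) and also in the dorsal neural tube, switched on the mTmG reporter. Embryos of both groups were Wnt1 Cre/+ and Rosa26 mTmG/+. The 3 control embryos were also flox/+ at BAF155 and at BAF170, so that their recombined cells still held a working copy of each gene, and the 3 BAF155/BAF170-deficient embryos were flox/flox at both genes. BAF155 and BAF170, encoded by Smarcc1 and Smarcc2, are core subunits of the BAF chromatin remodeling complex. Libraries were made from poly(A)-selected RNA, so the levels below are those of polyadenylated or co-purified RNA.

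Mitochondrial DNA is transcribed from both strands as long precursors. Most messenger and ribosomal RNAs in these precursors are separated by transfer RNAs, and excision of the transfer RNAs releases the RNAs on either side, most of which then receive a short poly(A) tail. The messenger RNAs encode subunits of respiratory complex I (mt-Nd1 to mt-Nd6 and mt-Nd4l), complex III (mt-Cytb), complex IV (mt-Co1 to mt-Co3) and ATP synthase, or complex V (mt-Atp6 and mt-Atp8). The remaining subunits, the mitochondrial RNA polymerase, the processing enzymes and the proteins of the mitochondrial ribosome are encoded in the nucleus.

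Library totals were 9662823, 8191219 and 11661941 counts in control replicates 1 to 3 and 12633319, 16557026 and 19808620 counts in deficient replicates 1 to 3. Every deficient library thus held more counts than any control. Smarcc1 fell by 0.71 on the log2 scale (SE 0.16, adjusted p = 0.0676 by edgeR's quasi-likelihood test), from between 35.0 and 54.9 to between 24.4 and 29.3 CPM (counts scaled to a common library size with TMM factors). For Smarcc2, which spanned 89.7 to 92.7 CPM in the controls and 82.1 to 86.6 CPM in the deficient libraries, the log2 difference was -0.11 (adjusted p = 0.251). The cell type label was not matched by the marker genes. The 12 macrophage markers, led by Ctss and Lyz2, summed to 12095 to 14022 CPM in the control and 14153 to 15438 CPM in the deficient libraries, whereas the 14 neural crest markers summed to 84.7 to 148 CPM in the control and 56.9 to 79.8 CPM in the deficient libraries. None of these markers was at 0 in all libraries. All 12 macrophage markers had a log2 fold change above 0, with 1 of them past the adjusted p threshold (Adgre1, 0.21, adjusted p = 0.0924). Among the 13 neural crest markers tested, 7 fell, with Tfap2a at -1.27 (adjusted p = 0.0559), Tfap2b at -1.70 (adjusted p = 0.0583) and Sox10 at -1.99 (adjusted p = 0.0625). At an adjusted p of at most 0.1, 4.18% of all tested genes rose and 7.75% fell, and 47.7% had a log2 fold change above 0. The 10 erythroid markers summed to 22.8 to 74.9 CPM in the control and 17.4 to 24.5 CPM in the deficient libraries. These marker levels moved with the groups, and their part in the mitochondrial values was not tested. In bulk samples, fewer cells of a type and less RNA per cell cannot be told apart. Nothing in the labels beyond the replicate numbers describes how the libraries of a group were separated, so p-values measure the spread between these libraries.

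A stretch of the mitochondrial genome is also present in the nucleus, and this bears on 7 of the 13 messenger RNAs. On chromosome 1, minus strand, GENCODE M21 annotates 7 unprocessed pseudogenes between 24611535 and 24616197 (GRCm38) whose transcripts match mitochondrial genes. Gm28661 matched mt-Co2 over 681 bases with 0 mismatches, Gm10925 matched mt-Atp6 over 678 bases with 0 mismatches, Gm28437 matched mt-Co3 over 783 bases with 0 mismatches, and Gm10222 matched mt-Nd4l over 294 bases with 0 mismatches. Gm28438 matched mt-Nd3 over 345 bases with 1 mismatch. Gm28439 held the first 876 bases of mt-Nd4 without a mismatch and Gm29216 lay over bases 1054 to 1545 of mt-Co1, its 3′ end, with 6 mismatches, or 1 mismatch over the 483 bases of the best local alignment. The first bases of 2 pairs, from the GENCODE transcripts and written 5′ to 3′ in the sense of the RNA, show how little there is to tell a read of one from a read of the other. Capitals mark a base that differs, T3C counted from the first base of mt-Nd3, and the mt-Co2 pair (chrM:7013-7132 and chr1:24615446-24615565) has none.

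mt-Co2: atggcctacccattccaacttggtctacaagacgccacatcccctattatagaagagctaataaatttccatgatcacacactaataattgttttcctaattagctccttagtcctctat
Gm28661: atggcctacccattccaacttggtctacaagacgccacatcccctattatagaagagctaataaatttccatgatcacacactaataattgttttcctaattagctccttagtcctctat
mt-Nd3: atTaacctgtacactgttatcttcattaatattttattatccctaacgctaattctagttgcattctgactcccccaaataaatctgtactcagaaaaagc
Gm28438: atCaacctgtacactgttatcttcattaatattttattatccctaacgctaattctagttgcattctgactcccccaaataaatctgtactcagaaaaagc

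The share of a gene's overlapping 100-base windows found in a transcript of another gene was 99.9% for mt-Co3, 99.5% for mt-Co2 and mt-Atp6, 98.5% for mt-Nd4l, 97.6% for mt-Nd3, 60.8% for mt-Nd4, 30.8% for mt-Co1 and 3.19% for mt-Nd2. It was 0 for mt-Nd1, mt-Nd5, mt-Nd6, mt-Cytb, mt-Atp8 and both ribosomal RNAs. How reads matching more than 1 place were counted is not given in the sources used here, so the levels of the first 5 genes and of their copies are uncertain. The annotation also lets neighbours share bases: mt-Atp8 and mt-Atp6 overlap by 43 bases, mt-Nd4l and mt-Nd4 by 7, and mt-Nd5 and mt-Nd6, which lie on opposite strands, by 14.

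All mitochondrial genes together held 1.19%, 1.51% and 0.969% of counts in the control libraries and 0.936%, 1.14% and 0.871% in the deficient libraries. The 13 messenger RNAs held 0.354%, 0.362% and 0.390% of the control libraries and 0.375%, 0.381% and 0.408% of the deficient libraries. The groups overlapped, and their means of 0.369% ± 0.0191 and 0.388% ± 0.0175 (SD, n = 3 each) did not differ beyond this spread (two-sided exact permutation test, p = 0.3, 0.45 after Benjamini-Hochberg adjustment over the 3 RNA classes). By replicate number, each deficient library was above its control. The test did not use that pairing, which the labels do not explain. The direction of this small difference depended on the denominator: with the abundant rows CT010467.1 and Lars2 left out of the totals, the log2 ratio of the mean shares went from 0.074 to -0.025.

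The 2 ribosomal RNAs held more than the 13 messenger RNAs in every library. Their share was 0.833%, 1.15% and 0.577% in the control and 0.560%, 0.753% and 0.462% in the deficient libraries, with means of 0.854% ± 0.287 and 0.592% ± 0.148 (SD, n = 3 each, exact permutation p = 0.2, adjusted 0.45). The highest library exceeded the lowest 2.49-fold, against 1.15-fold for the messenger RNAs. The 22 transfer RNAs held 120, 85 and 156 counts in the control and 139, 252 and 211 counts in the deficient libraries, or 0.00121% ± 0.000153 and 0.00123% ± 0.000254 of the libraries (SD, n = 3 each, exact permutation p = 0.8, adjusted 0.8). The smallest p that 3 against 3 libraries allow is 0.1. Wilson 95% intervals on single libraries reached at most 0.00411 percentage points to either side for the messenger RNAs, 0.0073 for the ribosomal RNAs and 0.000223 for the transfer RNAs, and cover counting error only.

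**Figure D1:**
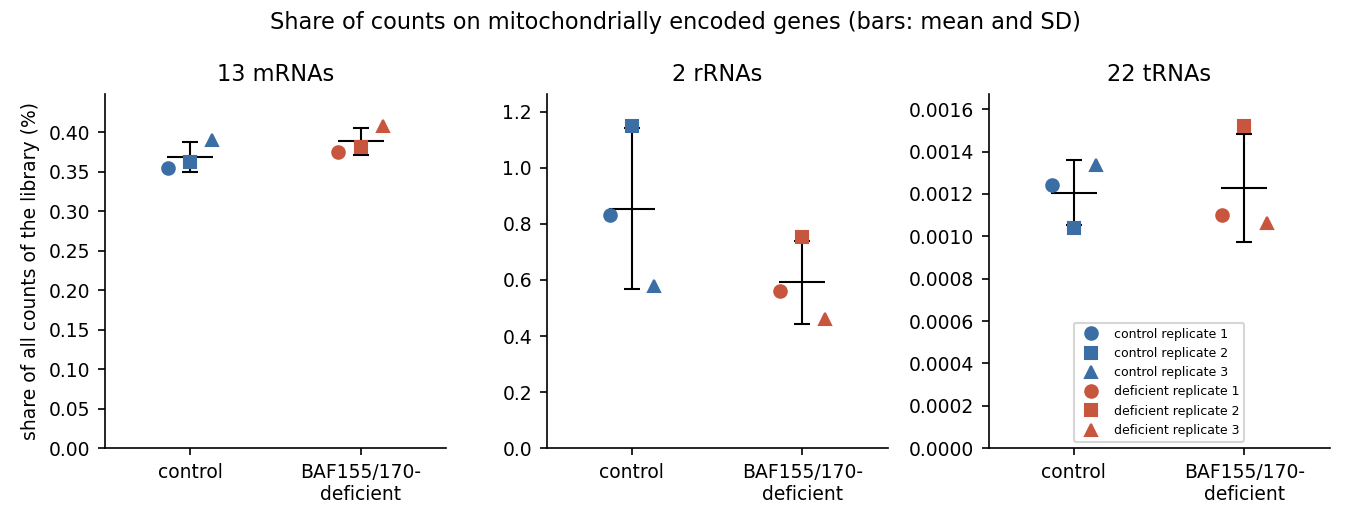
Share of all counts of a library, in percent, held by the 13 messenger RNAs, the 2 ribosomal RNAs and the 22 transfer RNAs, each on its own axis from 0, for the 3 control (blue) and 3 deficient libraries (red), with mean and SD as bars. The groups overlap in each panel, and the ribosomal RNAs range from 0.462% to 1.15%.

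In the fit over all 13961 genes that passed the filter on low counts, 17 of the 37 mitochondrial genes were tested: 12 messenger RNAs, both ribosomal RNAs and 3 transfer RNAs. At an adjusted p of at most 0.1, 1 of the 17 fell and 0 rose, where 7.75% of all tested genes were lower and 4.18% higher. The 1 that fell was mt-Nd5. With the fold and level rule added (an absolute log2 fold change no smaller than 0.58 and a mean level no lower than 2 CPM), edgeR called 0 of the 17, as did DESeq2 and limma-voom, where 4.88% of all genes were called lower and 0.0573% higher. An unadjusted p under 0.05 was reached by 2 of them. Among the 12 messenger RNAs the median log2 difference was -0.05, 5 lying above 0 and 7 below, beside a median of -0.02 over all tested genes, of which 47.7% were above 0. Their groups did not overlap for 1 gene higher in the deficient libraries (mt-Co1) and 2 lower (mt-Nd5 and mt-Nd6), where 15.1% and 16.4% of all genes were so separated.

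**Figure D2:**
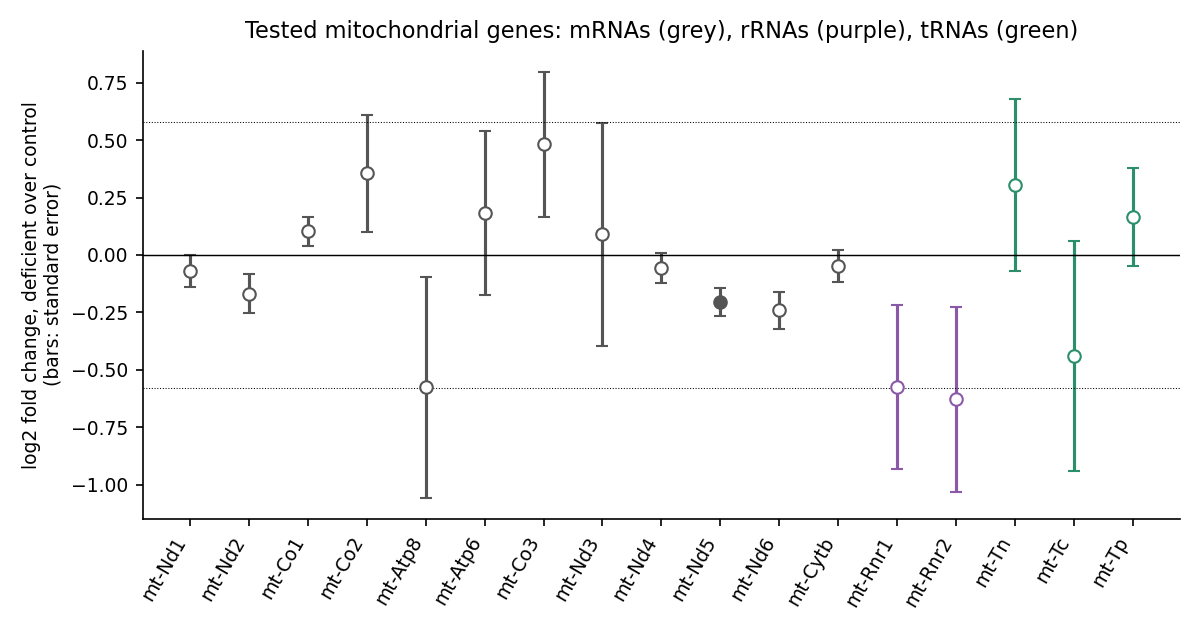
Log2 fold change of deficient over control libraries for the 17 mitochondrial genes tested, with the standard error as bars, messenger RNAs in grey, ribosomal RNAs in purple and transfer RNAs in green. The filled point, mt-Nd5 at -0.20, is the only one at an adjusted p of at most 0.1, and dotted lines mark the fold rule of 0.58.

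Of the 7 abundant messenger RNAs, 5 encode complex I subunits, and all 5 lay below 0, as did mt-Cytb. Only mt-Nd5 passed the threshold. mt-Nd5 (ENSMUSG00000064367, chrM:11742-13565, plus strand), encodes a membrane subunit of the proton-pumping arm. It stood at 324, 361 and 326 CPM in the control libraries and at 291, 295 and 291 CPM in the deficient libraries. All deficient libraries lay below all controls, and mt-Nd5 fell by 0.20 on the log2 scale (SE 0.060, adjusted p = 0.0861). This call was lost with library totals in place of TMM (adjusted p = 0.479), without a filter on low counts (adjusted p = 0.311), and when any library other than control replicate 3 was left out (adjusted p = 0.243 without control replicate 1, 0.259 without control replicate 2, and 0.113, 0.180 and 0.276 without the deficient libraries in their order).

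mt-Nd6 (ENSMUSG00000064368, chrM:13552-14070) is the only messenger RNA read from the minus strand, and its 3′ end meets that of mt-Nd5. It measured 117, 122 and 123 CPM in the control and 97.7, 116 and 92.6 CPM in the deficient libraries. The deficient libraries were all lower, with replicate 2 close to the lowest control, and the log2 difference of -0.24 (SE 0.082) missed the threshold at an adjusted p of 0.102. Without deficient replicate 2 it was -0.34 and passed (adjusted p = 0.0639). The other abundant complex I messenger RNAs overlapped between the groups. mt-Nd2 spanned 208 to 260 CPM in the control and 196 to 224 CPM in the deficient libraries (log2 difference -0.17, adjusted p = 0.222), mt-Nd1 spanned 377 to 437 and 365 to 404 CPM (-0.07, adjusted p = 0.554), and mt-Nd4 spanned 184 to 213 and 183 to 197 CPM (-0.06, adjusted p = 0.609). For mt-Cytb, the only complex III subunit encoded here, the spans were 429 to 494 and 419 to 464 CPM (-0.05, adjusted p = 0.683).

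mt-Co1 (ENSMUSG00000064351, chrM:5328-6872), which encodes the catalytic subunit of cytochrome c oxidase, was the most abundant messenger RNA. It reached 1955, 2039.6 and 1995 CPM in the control and 2111, 2129 and 2189.6 CPM in the deficient libraries. Every deficient library was above every control, but the log2 difference of 0.10 (SE 0.063) did not pass the test (adjusted p = 0.314).

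Within the messenger RNA pool, which does not depend on library scaling, mt-Co1 took 53.9%, 51.6% and 53.5% of the control and 57.1%, 55.3% and 57.2% of the deficient counts. Together the complex IV messenger RNAs averaged 53.4% in the control and 57.1% in the deficient libraries, and those of complex I went from 33.7%, 35.3% and 33.9% in the control to 30.7%, 32.2% and 30.3% in the deficient libraries, without overlap. mt-Nd5 went from 8.94%, 9.12% and 8.74% to 7.86%, 7.67% and 7.61%, and mt-Nd6 from 3.23%, 3.08% and 3.30% to 2.64%, 3.03% and 2.42%. Since these shares add up to the whole, a higher share of one gene lowers the others. Of the 21 shares and ratios compared, 6 did not overlap between the groups, 2 higher and 4 lower in the deficient libraries. The higher ones were mt-Co1 and complex IV, which contains mt-Co1. The lower ones were mt-Nd5, mt-Nd6, complex I, which contains both, and mt-Nd6 relative to the other messenger RNAs. The 6 are therefore not separate results. Each of the 6 had the smallest exact permutation p of 0.1, which became 0.35 after adjustment over the 21, so none passed the threshold.

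The levels along the genome differed far more than the groups did. In CPM per kilobase of gene, averaged over the 6 libraries, mt-Rnr2 stood at 2922, mt-Rnr1 at 2855, mt-Co1 at 1340, mt-Nd1 at 411, mt-Cytb at 393, mt-Nd6 at 215, mt-Nd2 at 213, mt-Nd5 at 173 and mt-Nd4 at 140. Below these came mt-Co2 at 15.9, mt-Co3 at 12.1, mt-Atp6 at 7.29, mt-Atp8 at 3.91, mt-Nd3 at 3.72 and mt-Nd4l at 1.91. The order held in all 6 libraries for most neighbours. The exceptions were mt-Rnr2 above mt-Rnr1 in 4 libraries, mt-Nd6 above mt-Nd2 in 3, mt-Atp8 above mt-Nd3 in 3, and mt-Nd3 above mt-Nd4l in 5. Per kilobase of start positions of windows found in no other transcript, mt-Co1 stood at 2070 and mt-Nd4 at 386. On that scale mt-Nd4 was above mt-Nd6 at 265, mt-Nd2 at 243 and mt-Nd5 at 182. This scale divides all counts of a gene by its unshared part, and is too high where reads of shared sequence were counted. Whether they were counted is not given, so the place of mt-Nd4 in the order is uncertain.

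The 6 low messenger RNAs are exactly those encoded between mt-Co1 and mt-Nd4. The 5 transfer RNAs encoded in the same interval (mt-Ts1, mt-Td, mt-Tk, mt-Tg and mt-Tr) were at 0 in all 6 libraries, against 2 of the other 17. The interval lies inside the part of chromosome M that the chromosome 1 copies span, from base 6381 to base 11042. mt-Atp8 is the member of this group without any 100-base window in another annotated transcript, and per kilobase it was no higher than mt-Co2 and mt-Atp6 on either side. It measured 0.955, 0.801 and 1.06 CPM in the control and 0.859, 0.731 and 0.379 CPM in the deficient libraries (log2 difference -0.58, SE 0.48, adjusted p = 0.470). Its whole sequence (chrM:7766-7969, start codon in capitals) is short, and its last 43 bases are also annotated as mt-Atp6. What this overlap contributes to its low count was not tested.

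mt-Atp8: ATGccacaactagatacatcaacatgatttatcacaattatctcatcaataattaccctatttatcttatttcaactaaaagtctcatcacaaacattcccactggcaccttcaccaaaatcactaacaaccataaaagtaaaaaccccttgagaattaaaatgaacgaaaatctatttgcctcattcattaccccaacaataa

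On chromosome M, 230 bases separate mt-Co2 from mt-Atp6 and hold mt-Atp8 from its start codon. The corresponding copies, Gm28661 and Gm10925, are 233 bases apart on chromosome 1. The chromosome 1 sequence between them was not compared here, because no genome sequence was used.

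**Figure D3:**
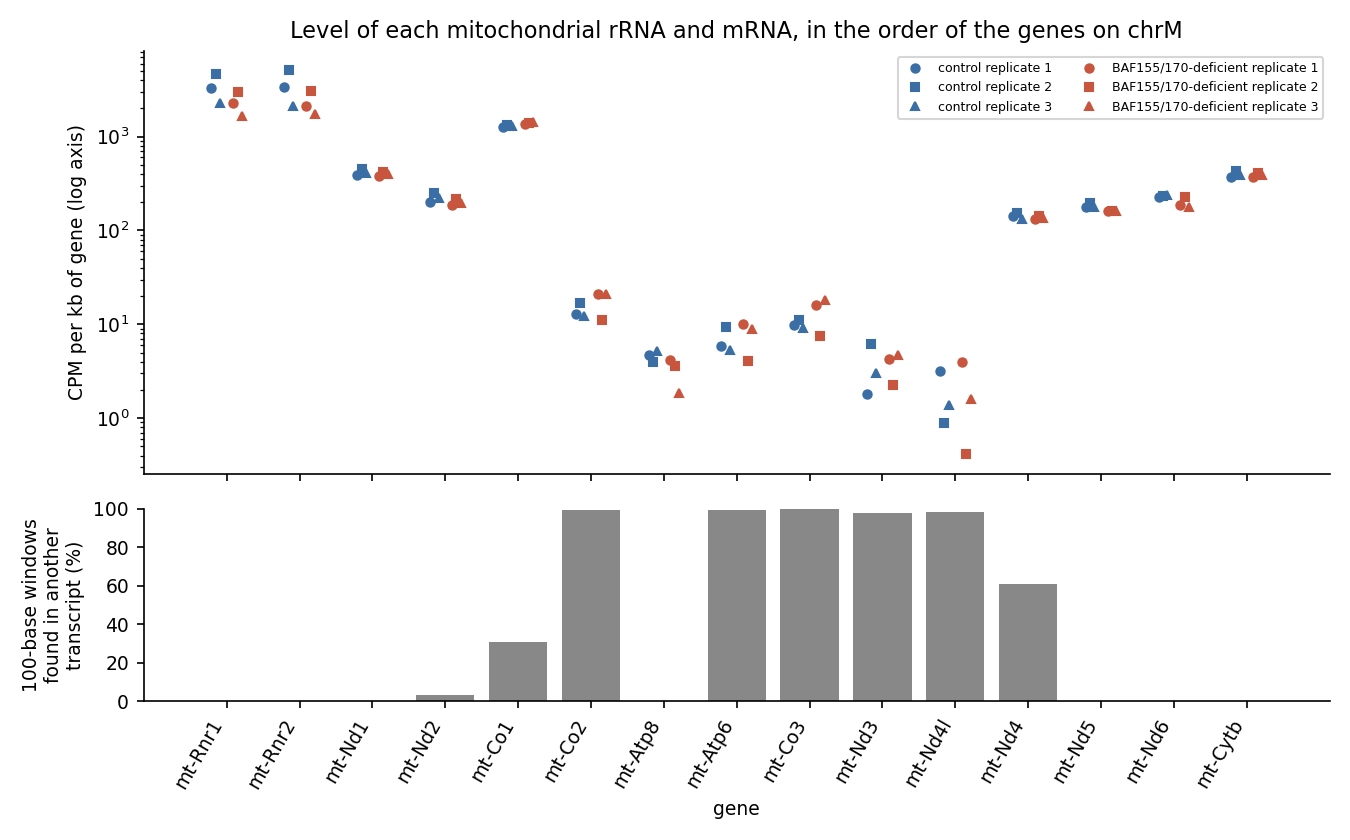
Upper panel: level of each ribosomal and messenger RNA in CPM per kilobase of gene (log axis) in the order of the genes on chromosome M, for each of the 3 control (blue) and 3 deficient libraries (red). Lower panel: percentage of each gene's 100-base windows also found in a transcript of another gene, which is 97.6% to 99.9% for 5 of the 6 low genes and 0 for mt-Atp8.

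Among the low messenger RNAs, the libraries rather than the groups stood apart. mt-Co2, which encodes the subunit that receives electrons from cytochrome c, measured 8.70, 11.6 and 8.35 CPM in the control and 14.5, 7.62 and 14.3 CPM in the deficient libraries (log2 difference 0.36, SE 0.25, adjusted p = 0.398). mt-Co3, the third core subunit of complex IV, measured 7.75, 8.81 and 7.20 CPM in the control and 12.7, 5.85 and 14.4 CPM in the deficient libraries (log2 difference 0.48, SE 0.32, adjusted p = 0.363). In both genes deficient replicates 1 and 3 were above every control and deficient replicate 2 was below every control. Without deficient replicate 2, the log2 difference of mt-Co3 was 0.79 with an adjusted p of 0.0704. mt-Atp6, which forms part of the proton channel of ATP synthase, was also lowest in deficient replicate 2, at 6.88, 2.74 and 6.11 CPM beside 4.03, 6.41 and 3.60 CPM in the control (0.18, adjusted p = 0.780). The complex I subunits mt-Nd3, at 0.637 to 2.14 CPM over the 6 libraries, and mt-Nd4l, at 0.122 to 1.17 CPM, were among the lowest of the messenger RNAs, and mt-Nd4l was not tested.

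In the sum, the nuclear copies of these 5 genes had their high and low deficient libraries in common with the genes. Summed over mt-Co2, mt-Atp6, mt-Co3, mt-Nd3 and mt-Nd4l, the counts were 208, 219 and 252 in the control and 471, 281 and 778 in the deficient libraries. Their 5 copies held 206, 169 and 232 counts in the control and 444, 216 and 879 counts in the deficient libraries, which is 0.77 to 1.13 copy counts per mitochondrial count. The ratio varied more for single genes, from 0.472 to 0.917 for mt-Co2, 0.750 to 1.14 for mt-Co3, 0.688 to 1.92 for mt-Atp6, 1.05 to 4.17 for mt-Nd3 and 0.2 to 2.5 for mt-Nd4l, the last resting on few counts. Gm28438 was highest in control replicate 1, at 2.65 CPM, where mt-Nd3 was lowest, at 0.637 CPM. Per 1000 counts of the 7 abundant messenger RNAs, the 5 genes had 6.12, 7.44 and 5.57 counts in the control and 10.05, 4.47 and 9.72 in the deficient libraries. The 7 abundant messenger RNAs held 99.0% to 99.5% of all messenger RNA counts. These ratios were chosen after the values were seen and carry no test.

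Of the 7 annotated copies, 6 were tested and 0 passed an adjusted p of 0.1 by edgeR (0.142 to 0.703), with 5 above 0. Gm29216, the copy of the 3′ end of mt-Co1, measured 5.94, 6.67 and 6.96 CPM in the control and 12.0, 6.22 and 14.8 CPM in the deficient libraries (log2 difference 0.76, SE 0.30, adjusted p = 0.142). Gm10925 was at 4.24 to 4.58 CPM in the control and 3.05 to 11.7 CPM in the deficient libraries (0.90, adjusted p = 0.270), Gm28661 at 5.32 to 7.34 and 3.60 to 13.1 CPM (0.52, adjusted p = 0.505), and Gm28437 at 7.29 to 8.81 and 4.39 to 13.6 CPM (0.34, adjusted p = 0.638). Gm28439, the copy of the start of mt-Nd4, was at 1.80 to 1.91 and 1.65 to 4.30 CPM (0.62, adjusted p = 0.296), and Gm28438 was at 1.72 to 2.65 and 1.56 to 2.23 CPM (-0.21, adjusted p = 0.703). In the first 5 of these, as in their mitochondrial counterparts among the low genes, deficient replicate 2 was the lowest deficient library.

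**Figure D4:**
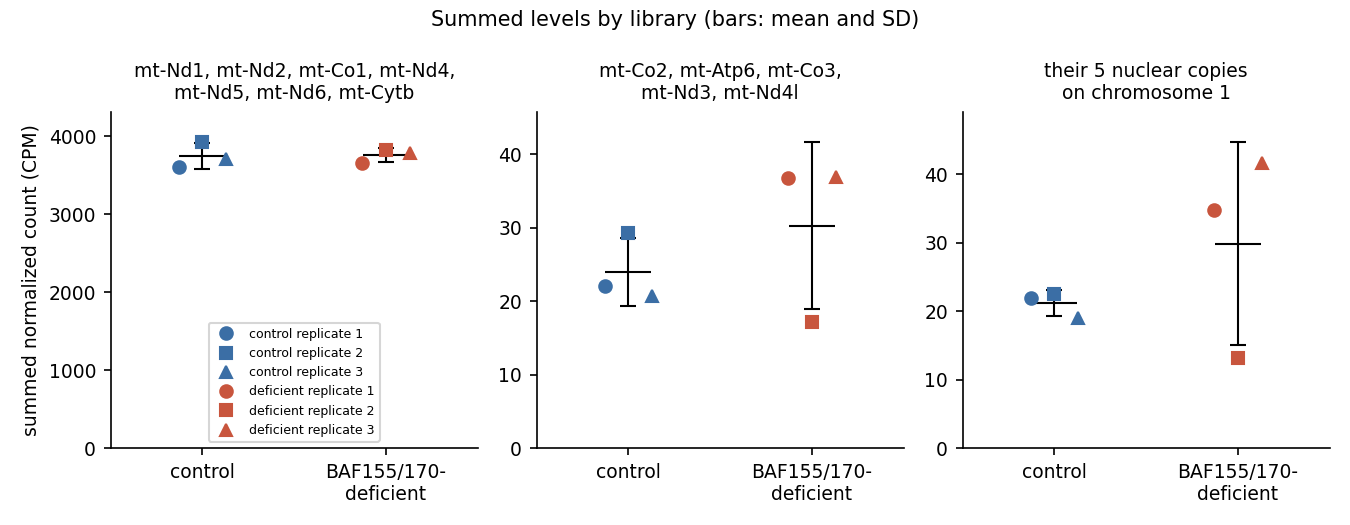
Summed CPM in each control (blue) and deficient library (red), with mean and SD as bars, for the 7 abundant messenger RNAs, the 5 messenger RNAs with a copy over nearly their full length, and those 5 copies, each on its own axis from 0. Deficient replicates 1 and 3 are high and replicate 2 is low in the middle and right panels and not in the left panel.

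The ribosomal RNAs, which form the core of the mitochondrial ribosome, had the widest spread of the abundant genes. mt-Rnr1 (ENSMUSG00000064337, chrM:70-1024), the RNA of the small subunit, measured 3157, 4475 and 2156 CPM in the control and 2173, 2818 and 1582 CPM in the deficient libraries. mt-Rnr2 (ENSMUSG00000064339, chrM:1094-2675), the RNA of the large subunit, measured 5386.5, 8099 and 3356 CPM in the control and 3353, 4785 and 2752 CPM in the deficient libraries. Control replicate 2 was the highest and deficient replicate 3 the lowest for both, while control replicate 3 lay among the deficient libraries. The log2 differences of -0.57 (SE 0.36, adjusted p = 0.372) and -0.63 (SE 0.40, adjusted p = 0.388) did not pass the test, and without control replicate 2 they were -0.28 and -0.27. The ratio of mt-Rnr1 to mt-Rnr2 counts stayed between 0.553 and 0.648 over the 6 libraries, with overlapping groups. Ribosomal counts per messenger RNA count were 2.35, 3.18 and 1.48 in the control and 1.49, 1.98 and 1.13 in the deficient libraries (exact permutation p = 0.3).

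The nuclear ribosomal RNA gene CT010467.1 varied alongside. It alone took 10.3%, 13.7% and 7.10% of the control counts and 7.14%, 8.47% and 4.91% of the deficient counts. The mitochondrial ribosomal RNAs amounted to 8.08%, 8.42% and 8.13% of its counts in the control and 7.84%, 8.90% and 9.40% in the deficient libraries. That is a 1.20-fold range, where their share of the library had a 2.49-fold range. This ratio was computed after the values were seen, and what the carry-over of ribosomal RNA into the libraries contributes to the mitochondrial ribosomal values was not tested.

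**Figure D5:**
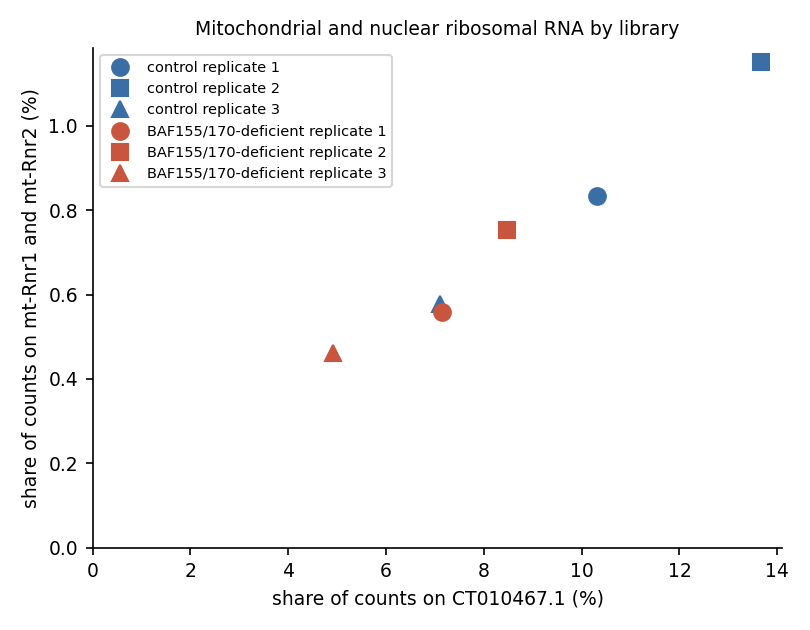
Share of counts on mt-Rnr1 and mt-Rnr2 against the share on the nuclear ribosomal RNA gene CT010467.1, both in percent with axes from 0, 1 point for each of the 3 control (blue) and 3 deficient libraries (red). Control replicate 2 is highest on both axes (1.15% and 13.7%) and deficient replicate 3 lowest (0.462% and 4.91%).

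Transfer RNAs were rare in these libraries. Of the 22, 7 were at 0 in all 6 libraries (mt-Tf and mt-Tv, beside the 5 named above), where 0 counts in a library allow up to 3 counts, or 0.142 to 0.400 CPM depending on the library, as far as counting error goes. Another 12 had too few counts to be tested. Summed over the 3 control and then the 3 deficient libraries, these were mt-Tl2 with 7 and 23 counts, mt-Tl1 with 19 and 6, mt-Tw with 13 and 8, mt-Ty with 9 and 9, mt-Ts2 with 9 and 6, mt-Ta with 5 and 7, mt-Te with 3 and 8, mt-Th with 4 and 4, mt-Tm with 7 and 0, mt-Tq with 3 and 2, mt-Tt with 2 and 2, and mt-Ti with 1 and 2. The 3 that were tested, mt-Tp (chrM:15356-15422), mt-Tn (chrM:5089-5159) and mt-Tc (chrM:5192-5257), carry proline, asparagine and cysteine, and all 3 are encoded on the minus strand. They are shown because they gave most of the class's counts, with the anticodon in capitals in the sense of the transfer RNA and written as DNA.

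mt-Tp: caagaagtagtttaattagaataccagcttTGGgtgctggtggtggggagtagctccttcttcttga
mt-Tn: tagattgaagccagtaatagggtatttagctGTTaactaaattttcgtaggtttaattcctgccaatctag
mt-Tc: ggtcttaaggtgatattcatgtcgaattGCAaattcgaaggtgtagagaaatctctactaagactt

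mt-Tp had 69, 47 and 83 counts in the control and 78, 164 and 143 counts in the deficient libraries, which is 53.2% to 67.8% of all transfer RNA counts in a library. In CPM it spanned 6.27 to 7.32 in the control and 6.09 to 9.996 in the deficient libraries (log2 difference 0.16, adjusted p = 0.655). mt-Tn had 11, 16 and 24 counts in the control and 33, 43 and 29 in the deficient libraries (log2 difference 0.30 after scaling, adjusted p = 0.639), and mt-Tc had 10, 3 and 16 counts in the control and 10, 14 and 11 in the deficient libraries (-0.44, adjusted p = 0.606). None of the 3 reached an unadjusted p under 0.05 by edgeR, and none passed the threshold by DESeq2 or limma-voom.

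Transfer RNA counts were also split by strand. The 14 transfer RNAs of the plus strand had 20, 14 and 28 counts in the control and 10, 20 and 21 counts in the deficient libraries, whose totals were higher. That is 2.09 ± 0.213 against 0.998 ± 0.219 CPM (SD, n = 3 each), without overlap. The 8 of the minus strand stood at 10.2 ± 0.621 against 11.1 ± 2.71 CPM, with overlap. Minus-strand genes thus held 82.1% to 83.5% of transfer RNA counts in the control and 90.0% to 92.8% in the deficient libraries. This split was looked at after the values were seen, rests on few counts and carries no test. It is by the annotated strand of the gene. The strand setting of the counting is not given, so the strand of the counted reads is not known. Among the plus-strand genes, mt-Tl1, which follows mt-Rnr2 with 0 bases between them, had 8, 1 and 10 counts in the control and 0, 1 and 5 in the deficient libraries, and mt-Tm had 1, 4 and 2 counts in the control and 0 in every deficient library. mt-Tl2 went the other way, with 1, 0 and 6 counts in the control and 3, 8 and 12 in the deficient libraries. All 3 were below the count filter. In the edgeR fit without the filter, the adjusted p was 0.0947 for mt-Tl1, 0.0898 for mt-Tm and 0.591 for mt-Tl2. In that fit 1727 of all 32523 genes were lower and 1369 higher at an adjusted p of at most 0.1.

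The nuclear genes that maintain, express and complete the mitochondrial system were described from 10 lists by role. Of their 220 genes, 216 were tested, and at an adjusted p of at most 0.1 4 rose (1.85%) and 2 fell (0.926%), both smaller shares than the 4.18% and 7.75% of all genes. With the fold and level rule, edgeR called 0 of them. The median log2 fold change was 0.05, with 139 of 216 above 0. Nuclear subunits of the respiratory complexes had medians of 0.10 for complex I (29 of 37 above 0), 0.12 for complex II (4 of 4), 0.13 for complex III (9 of 9), 0.14 for complex IV (11 of 12) and 0.07 for complex V (12 of 16), beside the -0.02 of all genes. The proteins of the mitochondrial ribosome had a median of 0.05 (52 of 76 above 0).

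The 3 respiratory subunits that rose belong to complexes I and III. Uqcrfs1, the Rieske iron-sulfur protein of complex III, went from 69.8, 70.6 and 68.7 CPM to 79.9, 79.0 and 82.6 CPM (log2 difference 0.21, SE 0.059, adjusted p = 0.0793). Ndufs3, a core subunit of the matrix arm of complex I, went from 29.1, 32.2 and 27.8 CPM to 38.8, 31.8 and 39.1 CPM (0.31, adjusted p = 0.0966), with deficient replicate 2 within the control range. Ndufa11, an accessory subunit of complex I, went from between 20.7 and 21.8 CPM to between 24.8 and 26.0 CPM (0.25, adjusted p = 0.0996).

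The lists for making and handling mitochondrial RNA had medians nearer to or below that of all genes. These were -0.12 for transcription and replication (6 of 17 above 0), 0.00 for RNA processing and stability (11 of 22), -0.17 for the aminoacyl-tRNA synthetases (2 of 17, or -0.17 and 2 of 16 without Lars2, the abundant row left out of the totals above) and 0.02 for regulators of biogenesis (4 of 7). Lrpprc, which binds mitochondrial messenger RNAs and keeps them stable and polyadenylated, measured 25.3, 24.7 and 25.3 CPM in the control and 22.3, 20.6 and 17.9 CPM in the deficient libraries, and fell by 0.31 on the log2 scale (SE 0.10, adjusted p = 0.0949). Mterf2, of the mitochondrial transcription termination factor family, fell by 2.06 (SE 0.44, adjusted p = 0.0534), from 2.55, 2.27 and 1.39 to 0.625, 0.366 and 0.474 CPM, a mean below the 2 CPM of the call rule. Esrra, a nuclear receptor that activates genes of oxidative metabolism, rose from between 41.8 and 52.0 to between 54.7 and 60.3 CPM (0.26, adjusted p = 0.0994). Leaving out the first or second control library, or the third deficient library, left 0 of the tested genes of all these nuclear lists past the threshold by edgeR. When control replicate 3 was left out, 17 of the list genes rose and 5 fell, where 1724 of all 14430 tested genes rose and 2021 fell.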

How the data were processed

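GFP-positive cells were sorted from 3 control and 3 BAF155/BAF170-deficient embryos, and strand-specific poly(A) libraries were sequenced as paired reads. Per the labels and the study's methods, reads were trimmed with cutadapt 1.18 and checked with FastQC 0.11.7, aligned to GRCm38 with STAR, and counted per gene with featureCounts. The authors deposited raw counts per gene, 1 column per library. The annotation release, the strand setting and the handling of reads with several matches are not given in the sources used here. Row identifiers were named from GENCODE M21, which matched 46488 of 46983 rows. The 495 unmatched rows held 0.0558% to 0.0706% of counts.

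Genes were kept by filterByExpr (at least 10 counts, total at least 15), scaled by TMM and tested with edgeR 4.0.16 (R 4.3.3), by the robust quasi-likelihood test with Benjamini-Hochberg adjustment over all 13961 genes. Thresholds were an adjusted p of 0.1, an absolute log2 fold change of 0.58 and a mean of 2 CPM. Single values per library were compared by two-sided exact permutation tests (scipy 1.17.1). The edgeR fit was first tested on simulated data with 200 changed genes. The common biological coefficient of variation was 12.8%. Alternatives were DESeq2 1.42.0, limma-voom (limma 3.58.1), other scalings and filters, the replicate number as a block and leaving out each library.

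Shared sequence was counted as windows of 100 bases of the GENCODE transcripts, and copies were aligned with Biopython 1.88. Named genes were all mitochondrial genes, Smarcc1 and Smarcc2, nuclear copies with a mean of at least 10 counts, and in each other list at most the 3 genes per direction with the lowest adjusted p among those past the threshold. Ctss, Lyz2, Gm10222, CT010467.1 and Lars2 were named outside this rule. Gm10288, listed as a copy, aligned over only 23 bases and was left out. The genes and lists were chosen with earlier results of these data known.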

Additional observations from a re-analysis of the deposited data

How the results depend on the processing

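Each result was recomputed under the alternatives that apply to it. Of the 37 mitochondrial genes, 1 fell and 0 rose with the settings of the report. The number that fell was 0 with library totals in place of TMM, 2 (mt-Tl1 and mt-Tm) without a filter on low counts, where 1 (mt-Co3, adjusted p = 0.0497) rose, and between 0 and 1 when single libraries were left out (mt-Nd5 without control replicate 3, mt-Nd6 with an adjusted p of 0.0639 without deficient replicate 2), where 0 to 1 rose (mt-Co3 without deficient replicate 2, which then also met the fold and level rule, met by 0 to 1 genes). With DESeq2, limma-voom, upper-quartile factors, TMM without the mitochondrial rows or a filter of 1 CPM in 3 libraries, mt-Nd5 remained past the threshold. It passed in 7 of 14 alternatives in all, with adjusted p from 0.0114 to 0.479 and a log2 difference between -0.23 and -0.14. mt-Rnr1 and mt-Rnr2 passed in 1 of the 14, the edgeR fit with the block, at adjusted p of 7.3e-05 and 0.0090. The log2 ratio of the messenger RNA shares was -0.025 with totals that left out CT010467.1 and Lars2. The ribosomal RNA shares stayed lower in the deficient libraries in all 8 of their alternatives (log2 ratio -0.75 to -0.25). The copies were added to the counts for the messenger RNAs only, since those of the other classes would not change.

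For the 216 nuclear genes, 4 higher and 2 lower became 1 higher with limma-voom, 2 higher and 1 lower with DESeq2, 1 higher and 1 lower with library totals or with upper-quartile factors, 1 lower without a filter and 1 higher with a filter of 1 CPM. Their median was 0.11 with library totals and 0.10 without a filter. Leaving out single libraries gave 0 to 17 higher and 0 to 5 lower. The cause of these changes was not tested. Over all genes, the 583 higher and 1082 lower became 75 and 1002 with library totals, 350 and 944 with upper-quartile factors, 867 and 1205 with DESeq2, and 1369 and 1727 of 32523 without a filter. They became 0 and 0 without control replicate 1, 0 and 73 without control replicate 2, and 1724 and 2021 without control replicate 3. They became 545 and 1553 without deficient replicate 1, 113 and 302 without deficient replicate 2, and 0 and 19 without deficient replicate 3.

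The replicate numbers are in the labels, which do not say whether same-numbered libraries belong together. The correlations of same-numbered libraries' deviations were 0.028, -0.034 and 0.293, and those of differently numbered libraries lay between -0.295 and 0.261. The ribosomal RNA share was highest in replicate 2 and lowest in replicate 3 of both groups. Whether same-numbered libraries share a source of variation was not tested. With the replicate block, 5 mitochondrial genes were lower (mt-Nd5, mt-Nd6, mt-Nd2, mt-Rnr1 and mt-Rnr2) and 0 higher, 11 nuclear genes were higher and 5 lower, and over all genes 1608 were higher and 2057 lower. The low counts of mt-Nd4l and 19 transfer RNAs left 20 of the 37 genes untested.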
